A study of Solanum lycopersicum with 12 samples.

Results

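UDP-glycosyltransferase genes were followed in ripening yellow and red tomato fruit. The genes were the rows of the expression table that carry the Gene Ontology (GO) term for UDP-glycosyltransferase activity or for quercetin glucosyltransferase activity, or that are described as a UDP-glycosyltransferase or a glucosyltransferase, less any whose description names cellulose or sucrose. Of the 24215 rows, 128 met that wording (0 were left out for cellulose or sucrose), and 52 of them reached 1 FPKM (fragments per kilobase of gene, scaled to the depth of the library) in at least 3 of the 12 libraries. These 52 are the members described here, 50 matched by GO term and 2 by description alone. Tomato (Solanum lycopersicum) number 19 is the yellow one and number 20 the red one, and the fruits were taken 40 days after flowering, called color break, or 55 days after flowering, called maturity. No treatment is named for any group. Each of the 4 groups (yellow at color break, red at color break, yellow at maturity, red at maturity) held 3 libraries of mRNA captured on oligo(dT). Nothing in the labels tells if replicates were separate plants, if fruits were pooled or if seeds were removed. The p-values therefore cover the spread among these libraries, possibly a technical one.

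UDP-glycosyltransferases move a sugar from a UDP-sugar, most often UDP-glucose, onto a small acceptor such as a flavonol, a phenolic acid, a hormone or a steroidal alkaloid. The sugar makes the product more soluble and usually less reactive, and the glycoside can then be stored in the vacuole. In ripening tomato fruit this step shapes the flavonol glycosides of the skin, the steroidal glycoalkaloids, the bound forms of aroma volatiles and the glucose ester of abscisic acid, a hormone that takes part in ripening. Sequence families of these enzymes are large, and the acceptor of a member cannot be read from a general family term.

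Total counts ran from 50963462 to 60854667 per library, and 15974 genes were tested. The fruit gene described as Polygalacturonase-2, an enzyme of pectin breakdown in ripening fruit, had group means of 4461 FPKM in yellow and 4418 in red at color break, and of 5607 in yellow and 591 in red at maturity. The ripening factor MADS-rin lay between 229 and 293 FPKM over the 12 libraries. Replicate 1 of red at maturity stood apart from the other 2 libraries of its group on the first principal component (76.7 against 119.8 and 120.1), and leaving it out lost no member's call and added 3. In bulk RNA, fewer cells of a type and less RNA per cell cannot be told apart. A gene was called when edgeR's Benjamini-Hochberg adjusted p over all tested genes was under 0.05 and the fold change was at least 1 on the log2 scale.

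Of the 128 matching rows, 76 stayed under the minimum. Of these, 71 were above 0 but never reached 1 FPKM in any library, and 5 reached it in 1 or 2 libraries, with highest values of 1.17 to 1.59. At the other side of the minimum, 3 members reached 1 FPKM in exactly 3 libraries: Solyc07g043170.3 (highest value 1.65), Solyc10g008860.1 (2.3) and Solyc12g057060.2 (1.36). Each of these passed through a single group. Another 4 passed only through the tomato or stage where they were high: Solyc04g008310.2 through red fruit, Solyc05g006140.1 through maturity, and Solyc03g078240.2 and Solyc11g066680.2 through color break. For these 7 members some difference between groups was fixed by the filter, and counts over the members describe the genes that passed, not the family. The members lie on all 12 chromosomes, from 2 on chromosomes 6 and 11 to 7 on chromosome 4. In the table's annotation, 17 members carry quercetin glucosyltransferase terms. Of the 52, 2 carry the abscisic acid glucosyltransferase term and 3 the sterol glucosyltransferase term or description. The 26 that carry none of the specific terms, entries or words looked for here were sorted as general, and further terms they may carry were not searched.

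Most of the transcript came from 3 genes. Solyc01g107830.3 (chromosome 1, 95140226 to 95141744, minus strand), which the table's enzyme entry places as a scopoletin glucosyltransferase, an enzyme that glucosylates a coumarin made in defence, had the highest mean level at 649.9 FPKM. Its libraries held 895, 893 and 903 FPKM in yellow at color break, 587, 583 and 578 in red at color break, 695, 706 and 702 in yellow at maturity, and 399.7, 436 and 422 in red at maturity. No 2 of the 4 groups overlapped. The red tomato was 1.54-fold lower at color break (log2 fold change -0.62 ± 0.03 SE, edgeR adjusted p = 7.01e-10) and 1.84-fold lower at maturity (-0.88 ± 0.03, adjusted p = 9.77e-12), both under the minimum change. The gene also declined with stage in both tomatoes, by less than the minimum (log2 -0.38 ± 0.03 in yellow and -0.63 ± 0.03 in red).

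Solyc02g070020.1 (chromosome 2, 40377628 to 40379067), described as UDP-glycosyltransferase 91C1, averaged 462 FPKM and was at 570.1 ± 9.87 FPKM (mean ± SD, n = 3) in yellow and 469 ± 4.14 in red at color break, then 419 ± 3.28 and 389 ± 18.2 at maturity. Solyc10g085280.2 (chromosome 10, 64623898 to 64637013), which carries the abscisic acid glucosyltransferase term, averaged 378 FPKM. It stood at 407 ± 9.51 in yellow and 359.6 ± 2.19 in red at color break, and at 459 ± 4.24 in yellow and 285 ± 5.9 in red at maturity. The tomatoes moved in opposite directions with stage, up by 0.15 ± 0.02 in yellow and down by 0.50 ± 0.02 in red on the log2 scale, and the difference of the stage changes was -0.65 ± 0.03 (edgeR adjusted p = 3.06e-09), all under the minimum change. A gene of the opposite strand that lies within its bounds, Solyc10g085285.1, had the same order of group means (110, 96.2, 121 and 65.9 FPKM), and whether the authors' counting used strand is not given in the sources used here.

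Summed over the 52 members, FPKM was 2299 ± 24.2 (mean ± SD, n = 3) in yellow and 1945 ± 20.8 in red at color break, and 2057 ± 9.77 in yellow and 1658 ± 70.7 in red at maturity. The 3 leading genes took 81.3% to 81.6% of that sum in yellow at color break, 72.3% to 72.9% in red at color break, 76.6% to 76.9% in yellow at maturity and 65.6% to 66.2% in red at maturity. The 4 groups did not overlap in either measure. Beyond these 3, 15 members had a mean level of at least 10 FPKM, while 10 were under 2. The median of the member means was 7.61 FPKM, beside 9.43 over all tested genes.

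**Figure D1:**
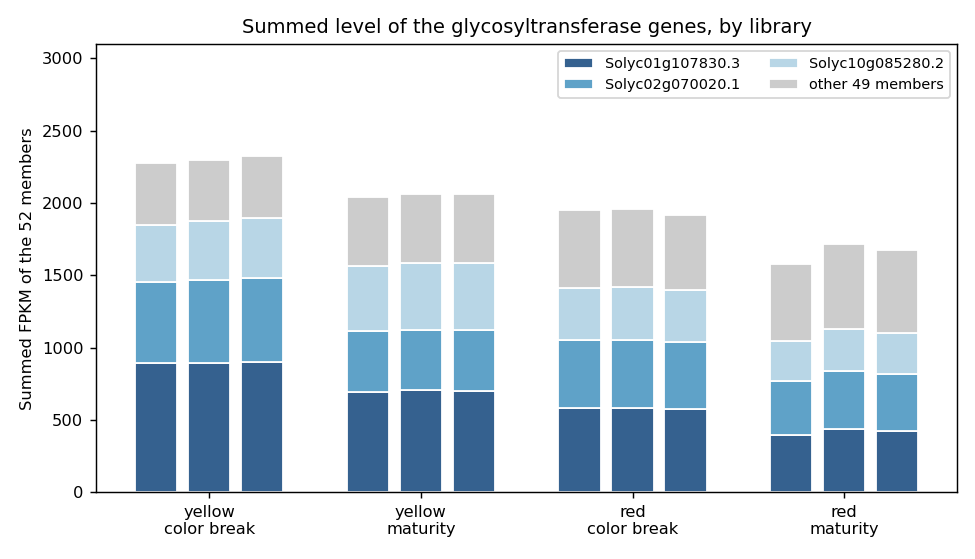
Summed FPKM of the 52 glycosyltransferase genes in each of the 12 libraries (bars, in order of replicate within each group), split into the 3 genes of highest mean level and the other 49. The sum lies between 2276 and 2324 in yellow at color break and between 1581 and 1719.8 in red at maturity.

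**Figure D2:**
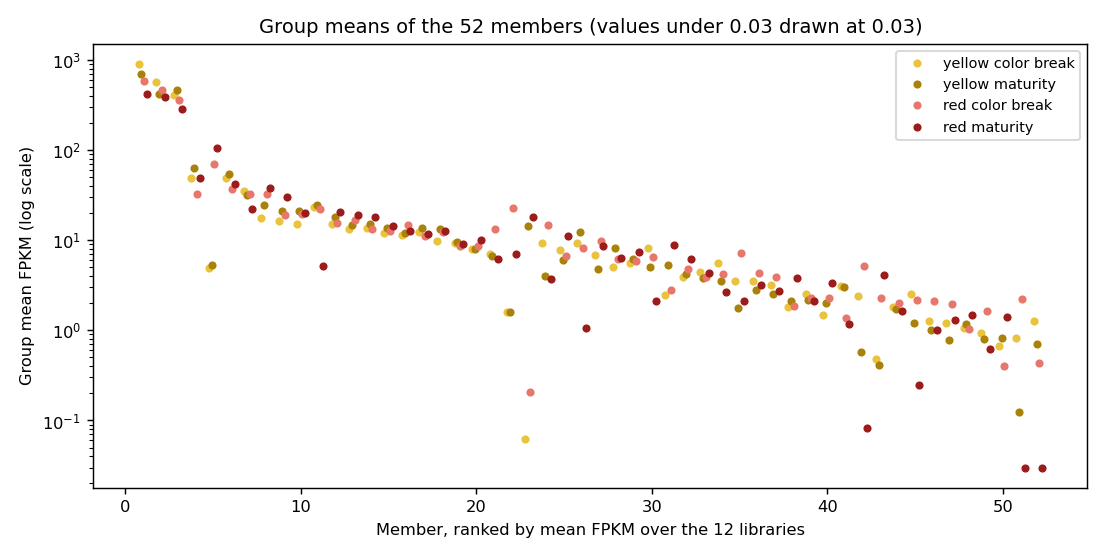
Group mean FPKM (log scale, 4 points per gene) of the 52 members in order of their mean over the 12 libraries, with values under 0.03 drawn at 0.03. The 4 points of most genes lie close together, and those of Solyc05g006140.1, Solyc10g008860.1 and Solyc12g057060.2 lie far apart.

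The first comparison asked which of these genes differ between the red and the yellow fruit at color break. The largest differences were in a pair of chromosome 9 genes, each about 14-fold higher in red. Of the 52 members, 8 (15.4%) were called, beside 6.2% of all tested genes. Of the 52, 6 (11.5%) were higher in red and 2 (3.85%) lower, beside 4.12% and 2.08%. The member median was 0.14 beside 0 over all tested genes. At an adjusted p under 0.05 with no minimum change there were 30 (57.7%), beside 41.5%. FPKM did not overlap between the groups in 38 members (73.1%), beside 56.1%. Red lay above in 22 (42.3%) and below in 16 (30.8%), beside 29.2% and 26.9% of all tested genes.

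Solyc09g092480.2 (chromosome 9, 72036747 to 72046299, plus strand) carries terms for abscisic acid glucosyltransferase, for indole-3-acetate glucosyltransferase and for fruit ripening. Abscisic acid glucosyltransferases make the glucose ester of the hormone, an inactive storage form. At color break it stood at 5.24, 5.23 and 4.43 FPKM in the yellow libraries and 70.9, 69.5 and 68.8 in the red ones, and at maturity at 5.39, 5.32 and 5.31 in yellow and 97.1, 112 and 109.7 in red. Every red library lay above every yellow one, at both stages. The gene was 14-fold higher in red at color break (log2 fold change 3.81 ± 0.07 SE, edgeR adjusted p = 7.11e-14) and 18-fold higher at maturity (4.17 ± 0.07, adjusted p = 2.47e-14). The stage change in yellow fruit did not pass the test (0.08 ± 0.06, adjusted p = 0.321), and red fruit rose by 0.45 ± 0.06 (adjusted p = 1.12e-05), under the minimum change. In red fruit, at both stages, only the 3 leading genes had a higher mean level.

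Solyc09g059170.2 (chromosome 9, 53805561 to 53806970, minus strand) was among the members sorted as general. It was at 1.76, 1.25 and 1.78 FPKM in yellow fruit, against 22.8, 22.9 and 22.8 for red ones at color break, 14.2-fold higher in red (3.83 ± 0.15, adjusted p = 1.71e-10). At maturity yellow held 1.74, 1.38 and 1.65 FPKM and red 5.54, 8.04 and 7.23, a 3.95-fold difference (1.98 ± 0.14, adjusted p = 6.48e-08). The red groups lay above both yellow groups without overlap, and red fruit fell 3.68-fold with stage while the yellow change did not pass the test (adjusted p = 0.891).

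Solyc04g008310.2 (chromosome 4, 1986333 to 1987685) was a low gene, at 0.375, 0.632 and 0.451 FPKM in yellow fruit, against 1.97, 2.52 and 2.32 for red ones at color break, 4.61-fold higher in red (2.2 ± 0.28, adjusted p = 2.95e-05). At maturity it was at 0.352, 0.638 and 0.256 in yellow and 3.68, 5.06 and 3.48 in red, 8.74-fold higher (3.13 ± 0.29, adjusted p = 6.87e-07). These 3 genes were the members called higher in red at both stages, 5.77% of the 52 beside 0.939% of all tested genes. Solyc04g008310.2 reached 1 FPKM in red libraries only, so the filter itself required it to be high in red.

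The other members called higher in red at color break were Solyc10g008860.1 (2.68-fold), Solyc03g078240.2 (2.14-fold) and Solyc04g016220.3 (2.06-fold). Solyc10g008860.1, with quercetin glucosyltransferase terms, was at 0.821 ± 0.155 FPKM in yellow and 2.21 ± 0.0828 in red (n = 3 each). It passed the filter through red at color break alone, so the filter required it to be high there. Solyc04g016220.3, named after its values were seen, was at 3.5 ± 0.135 and 7.21 ± 0.626 FPKM. Its call was lost without replicate 3 of red at color break (log2 0.98) and with limma on log2(FPKM + 1) (0.87). None of the 3 was called higher in red at maturity.

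Of the members called lower in red at color break, both were also lower at maturity, 3.85% of the 52 beside 1.08% of all tested genes. Over all tested genes, 172 of the 333 called lower in red at color break were called lower at both stages. Solyc01g105350.2 (chromosome 1, 93442897 to 93446106) was at 3.07, 2.99 and 3.24 FPKM in yellow fruit, against 1.51, 1.24 and 1.36 for red ones at color break, and at 3.1, 3.51 and 2.58 in yellow at maturity, where red was at 1.17 ± 0.0586 (mean ± SD, n = 3). Red lay under yellow without overlap at both stages. It was 2.27-fold lower at color break (-1.18 ± 0.12, adjusted p = 3.57e-06) and 2.88-fold lower at maturity (-1.53 ± 0.12, adjusted p = 1.85e-07). Solyc12g057060.2 (chromosome 12, 64076194 to 64078103) was at 1.35, 1.14 and 1.36 FPKM in yellow fruit, against 0.544, 0.329 and 0.437 for red ones at color break. It passed the filter through yellow at color break alone, which required a difference of this direction. At maturity yellow held 0.983, 0.528 and 0.621 FPKM and the 3 red libraries held 0 counts. With a floor of 3 counts over the red group, the gene was at least 87.7-fold lower in red than in yellow at maturity. With limma on log2(FPKM + 1) neither gene was called at either stage. The changes at color break and maturity were then -0.79 and -0.90 in Solyc01g105350.2 and -0.67 and -0.77 in Solyc12g057060.2.

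**Figure D3:**
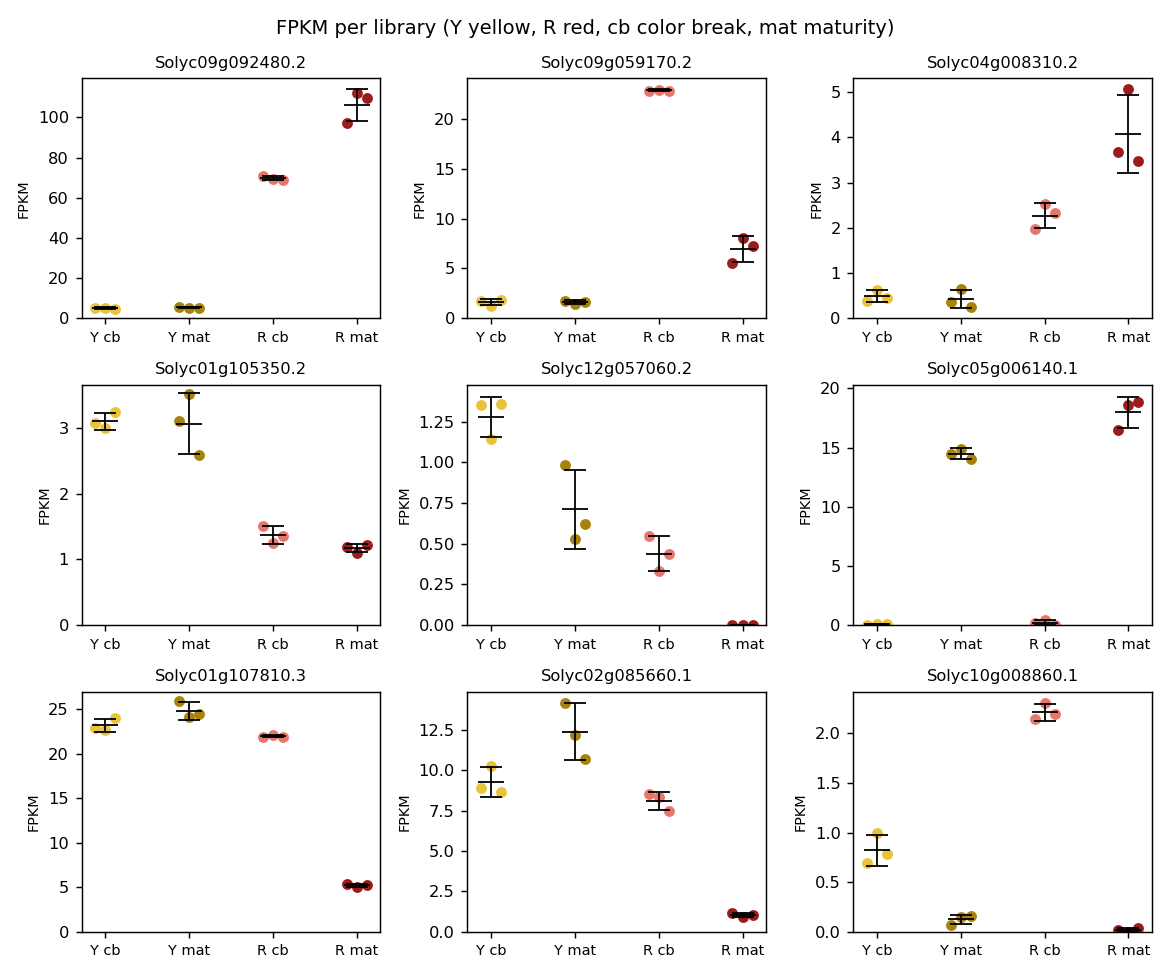
FPKM in each library (points), with the mean (bar) and SD of 3 libraries (whiskers), for 9 members in yellow (Y) and red (R) fruit at color break (cb) and maturity (mat). The first 3 genes are higher in red at both stages, the next 2 lower in red at both, and the last 4 change with stage in one or both tomatoes.

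At maturity 11 of the 52 members (21.2%) were called, beside 11.1% of all tested genes. Of the 52, 3 (5.77%) were higher in red and 8 (15.4%) lower, beside 3.26% and 7.89%. Calls turned from mostly higher to mostly lower in red, as they did over all tested genes. The member median was -0.09 against 0.003 over all tested genes. At an adjusted p under 0.05 there were 32 (61.5%), beside 57.1%. FPKM did not overlap in 35 members (67.3%), beside 64.9%. Red lay above in 18 (34.6%) and below in 17 (32.7%), beside 43.1% and 21.8% of all tested genes. These FPKM values lack the TMM scaling of the calls. With limma on log2(FPKM + 1) the median of all genes was 0.12 here, and the part of this offset in the shares was not tested. The 3 higher genes were those described above. The 8 lower genes were the 2 above and 6 others.

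The largest fall without a group at 0 was in Solyc02g085660.1 (chromosome 2, 49127878 to 49129350), which the table's enzyme entry places as a coniferyl alcohol glucosyltransferase. Such an enzyme glucosylates a building block of lignin. At color break its libraries held 8.89, 10.3 and 8.65 FPKM in yellow and 8.52, 8.35 and 7.49 in red, and at maturity 14.2, 12.2 and 10.7 in yellow and 1.18, 0.933 and 1.03 in red. Red at maturity lay under all other groups, and the gene was 12.9-fold lower there than in yellow (-3.69 ± 0.13, adjusted p = 4.74e-11). Solyc01g107810.3 (chromosome 1, 95122572 to 95128641), named after its values were seen as the neighbor of the most abundant member, showed the same shape. It was at 22.9, 22.7 and 24 FPKM in yellow fruit, against 21.9, 22.1 and 21.9 for red ones at color break, and at 25.9, 24.1 and 24.5 in yellow fruit, against 5.42, 5.02 and 5.25 for red ones at maturity, 5.22-fold lower in red (-2.38 ± 0.05, adjusted p = 3.38e-13).

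Solyc03g078240.2, which was higher in red at color break, was 7.54-fold lower at maturity (-2.91 ± 0.28, adjusted p = 8.97e-07), at 0.459, 0.446 and 0.827 FPKM in yellow and 0.0883, 0.0651 and 0.0917 in red. Solyc10g008860.1 changed sides in the same way, with 7, 14 and 13 counts in yellow fruit, against 2, 0 and 4 for red ones at maturity (-2.51 ± 0.58, adjusted p = 0.0022). By edgeR these 2 members were called higher in red at one stage and lower at the other. With limma on log2(FPKM + 1) both calls of both genes were lost (for Solyc10g008860.1 at maturity -0.14, adjusted p = 0.154), and with log2(FPKM + 0.1) the maturity call of Solyc10g008860.1 (-0.90) was lost. Solyc03g078780.2 (-2.40 ± 0.25, adjusted p = 2.18e-06) and Solyc12g098580.1, named after its values were seen (-1.39 ± 0.13, adjusted p = 1.03e-06), complete the 8. Neither was called with limma on log2(FPKM + 1) (-0.82 and -0.97).

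As sums, seed and green tissue genes were also lower in red than in yellow at maturity. With stage in yellow, all 4 seed genes and 4 of the 10 tested green tissue genes were called lower too, beside 4.88% of all tested genes. In red, 4 seed and 7 green tissue genes were called lower with stage, beside 11.5%. DESeq2 called 1 of the seed genes with stage in yellow and 2 in red. Limma on log2(FPKM + 1) called 1 of the green tissue genes with stage in yellow and 7 in red. The summed FPKM of 4 oleosin genes, coat proteins of seed oil bodies, lay between 418 and 452 in yellow and between 697 and 745 for red ones at color break, and between 74.4 and 81.1 in yellow and between 1.16 and 15.6 in red at maturity. Of the 4, 3 were called lower in red at maturity (2 by DESeq2), beside 7.89% of all tested genes. The summed FPKM of 16 chlorophyll-binding and photosystem genes lay between 126 and 131 in yellow and between 187 and 194 for red ones at color break, and between 84.3 and 88.3 and between 41.1 and 55.2 at maturity. Of the 10 tested, 5 were called higher in red at color break, beside 4.12% of all tested genes, and 6 lower at maturity, beside 7.89%. Limma on log2(FPKM + 1) called 3 at either stage. Of the 16, 4 were at 0 counts in red at maturity and 3 in yellow at maturity. At color break 1 was at 0 counts in yellow and 0 were in red. Polygalacturonase-2 was low in the same group, red at maturity. The part of either tissue or of ripening in the members' falls was not tested.

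In the yellow tomato the stage comparison asked what changed between 40 and 55 days. Here 7 of the 52 members (13.5%) were called, beside 6.35% of all tested genes. Of the 52, 2 (3.85%) were higher and 5 (9.62%) lower at maturity, beside 1.47% and 4.88%, and the median was 0 beside -0.002. In the red tomato 16 (30.8%) were called, beside 15.5%. Of the 52, 3 (5.77%) were higher and 13 (25.0%) lower, beside 3.93% and 11.5%, and the median was -0.20 beside 0.002. At an adjusted p under 0.05 there were 27 (51.9%) in yellow, beside 39.6%, and 37 (71.2%) in red, beside 64.3%. FPKM of the stages did not overlap in 37 members (71.2%) in yellow, beside 55.0%. Maturity lay above in 20 (38.5%) and below in 17 (32.7%), beside 29.7% and 25.3% of all tested genes. In red FPKM did not overlap in 40 (76.9%), beside 71.2%. Maturity lay above in 18 (34.6%) and below in 22 (42.3%), beside 46.2% and 24.9% of all tested genes. The FPKM offset holds here too, with a median of all genes of 0.142 by limma on log2(FPKM + 1) in red.

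The largest called rise in each tomato was in Solyc05g006140.1 (chromosome 5, 844646 to 845323, minus strand), which carries quercetin glucosyltransferase terms. At color break it held 2, 4 and 3 counts (0.0422, 0.0855 and 0.0613 FPKM) in yellow and 9, 21 and 0 counts (0.19, 0.436 and 0 FPKM) in red. At maturity it was at 14.5, 14.9 and 14 FPKM in yellow and 16.5, 18.6 and 18.9 in red. The maturity libraries of each tomato lay far above all color break libraries, and it passed the filter through maturity alone, which required a difference of this direction. The rise was 7.69 ± 0.43 on the log2 scale in yellow (edgeR adjusted p = 9.76e-09) and 6.18 ± 0.36 in red (adjusted p = 3.2e-09), and the difference of the 2 rises was not called (-1.51 ± 0.79, adjusted p = 0.136). Without replicate 3 of red at color break, the library at 0, it was called higher in red at color break (2.21) and lower in the difference of the rises (-2.03).

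Solyc07g043120.2 (chromosome 7, 56821354 to 56831779) rose in both tomatoes too, from 2.45, 2.85 and 2.08 to 4.94, 5.80 and 5.35 FPKM in yellow and from 3.02, 2.69 and 2.63 to 7.81, 9.82 and 9 in red. The log2 rise was 1.10 ± 0.11 in yellow (adjusted p = 3.67e-06) and 1.51 ± 0.11 in red (adjusted p = 4.13e-08), and the yellow rise missed the minimum with replicate 3 of the color break group left out (0.99). The third rise in red was in Solyc07g043170.3, from 0.283, 0.634 and 0.304 to 1.17, 1.65 and 1.42 FPKM (1.61 ± 0.29, adjusted p = 0.000251). It passed the filter through red at maturity alone, which required a difference of this direction. This low gene lies wholly inside Solyc07g043160.2 on the opposite strand, a member at 12.3 FPKM in red at color break and 12.7 at maturity, so its reads and those of its partner could be shared. Members called higher in both tomatoes numbered 2 (3.85%), beside 0.645% of all tested genes.

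All 5 members that fell in yellow also fell in red, 9.62% of the 52 beside 4.07% of all tested genes. Over all tested genes, 650 of the 780 called lower in yellow were called lower in both tomatoes. Solyc10g008860.1 fell from 0.691, 0.992 and 0.779 to 0.071, 0.147 and 0.157 FPKM in yellow and from 2.14, 2.30 and 2.19 to 0.0183, 0 and 0.0419 in red (log2 -2.73 ± 0.35, adjusted p = 3.15e-05, and -6.66 ± 0.44, adjusted p = 1.38e-08). It passed the filter through red at color break alone, which fixed the direction of the red change. Solyc03g078240.2 fell 4.22-fold in yellow, from 2.47, 2.13 and 2.58 FPKM, and 68.1-fold in red, from 4.85, 5.40 and 5.16. It reached 1 FPKM at color break only, so the filter fixed part of this direction. A gene of the opposite strand that contains it whole, Solyc03g078230.3, moved the same way with smaller changes, from 1.80 to 0.880 FPKM in yellow and from 2.86 to 0.812 in red. Solyc12g096090.2 fell from 8.94, 10.2 and 8.69 to 4.33, 3.48 and 4.11 FPKM in yellow and from 14.8, 15.8 and 14.2 to 4.36, 3.38 and 3.39 in red (-1.24 ± 0.12, adjusted p = 1.63e-06, and -2.17 ± 0.12, adjusted p = 1.72e-09). Solyc03g078780.2 fell 2.16-fold in yellow and 9.68-fold in red, and its bounds overlap those of Solyc03g078730.2, a member on the opposite strand. The fifth, Solyc04g016220.3, stood at the minimum change in yellow (-1 ± 0.11, adjusted p = 9.31e-06) and fell 3.82-fold in red. Leaving out 1 yellow library ended the yellow call in 3 cases, which were replicate 1 at color break (-0.97), replicate 1 at maturity (-1) and replicate 3 at maturity (-0.97). The yellow call was also lost with no filter (-0.99) and with total count scaling (-0.99). Limma on log2(FPKM + 1) (-0.70) and on log2(FPKM + 0.1) (-0.95) lost it too.

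In red, Solyc12g057060.2 went from 66, 40 and 47 counts at color break to 0 in all 3 libraries at maturity, at least 54.1-fold lower. Solyc02g085660.1 fell 8.63-fold in red, Solyc01g107810.3 4.69-fold and Solyc09g059170.2 3.68-fold, while in yellow these 3 genes changed by no more than 0.39 on the log2 scale. The other falls in red, named after their values were seen, were Solyc12g098580.1 (3.43-fold), Solyc11g066680.2 (2.88-fold), Solyc12g096830.2 (2.42-fold) and Solyc07g043050.1 (log2 -1.24 ± 0.25). Solyc11g066680.2 reached 1 FPKM at color break only, which bears on its fall. The 13 falls in red were 25.0% of the 52, beside 11.5% of all tested genes. Of these, 9 were among the 26 members sorted as general, 3 among the 11 sorted on quercetin terms alone, and 1 was the coniferyl alcohol entry. The filter bears on some of these falls, as given above, and the classes were not compared by a test.

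**Figure D4:**
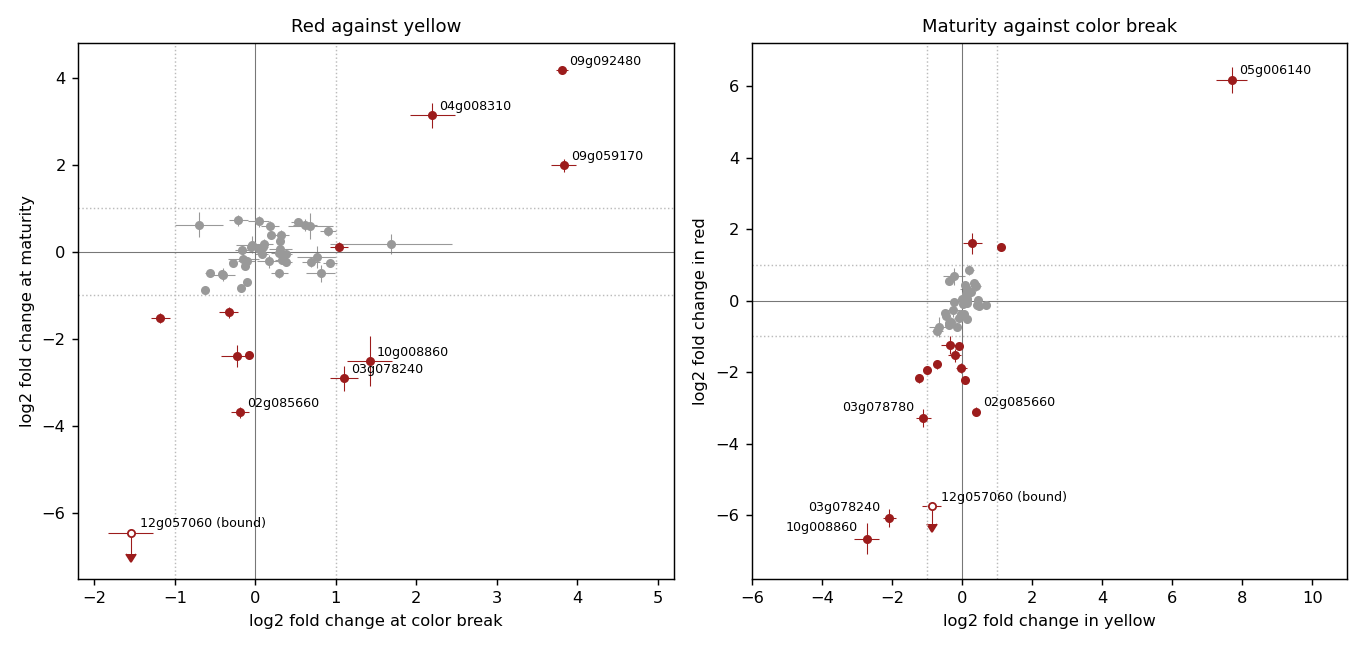
Log2 fold changes (edgeR, whiskers SE) of the 52 members, red against yellow at color break (x) and maturity (y) at left, and maturity against color break in yellow (x) and red (y) at right, with dotted lines at the minimum change of 1. Members called in either comparison are dark red, those at 2.5 or more in either direction are labelled without the Solyc prefix, and Solyc12g057060.2 (open) is drawn at its bound; 3 genes lie at the upper right at left, and most changed members lie below 0 in red at right.

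Taking the stage change of yellow from that of red, 11 of the 52 members (21.2%) were called, beside 12.2% of all tested genes. Of the 52, 1 (1.92%) was higher and 10 (19.2%) lower, beside 3.0% and 9.23%. At an adjusted p under 0.05 there were 26 (50.0%), beside 46.7%. The difference of the stage changes shares its libraries with the 4 comparisons above. Among the 10 lower, Solyc01g107810.3 (-2.30 ± 0.07, adjusted p = 2.28e-11), Solyc02g085660.1 (-3.5 ± 0.17, adjusted p = 2.16e-09) and Solyc09g059170.2 (-1.85 ± 0.20, adjusted p = 6.19e-06) were called lower with stage in red and not in yellow. Solyc03g078240.2 (-4.01 ± 0.33, adjusted p = 3.31e-07), Solyc10g008860.1 (-3.93 ± 0.64, adjusted p = 0.000198) and Solyc03g078780.2 (-2.17 ± 0.32, adjusted p = 9.6e-05) fell in both tomatoes, and the difference lay toward red. Solyc07g043170.3 was the 1 higher (1.32 ± 0.41, adjusted p = 0.0161). It passed the filter through red at maturity alone, as Solyc10g008860.1 did through red at color break. The median over the members was -0.23, beside -0.003 over all tested genes.

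In the 4 comparisons of 2 groups, 19 members were called at least once, 36.5% of the 52 beside 20.3% of all tested genes, and 33 were not. In those 33, DESeq2 and limma on log2(FPKM + 1) also made 0 calls, and 21, 20, 22 and 18 had an unadjusted edgeR p under 0.05 at color break, at maturity, in yellow and in red. Many of them differed by less than the minimum: the largest log2 change among the 33 was 0.90 in either direction in these comparisons.

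That largest change belonged to Solyc03g114710.3 (chromosome 3, 66092651 to 66094348), described as Flavonol 3-O-glucosyltransferase UGT89B1, an enzyme that puts glucose on flavonols. It was at 17.6, 16.9 and 18.2 FPKM in yellow fruit, against 32.4, 34.8 and 31.3 for red ones at color break, 1.87-fold higher in red (0.90 ± 0.10, adjusted p = 6.26e-06). At maturity it was at 24.2, 25.7 and 23.7 in yellow and 29.8, 44.3 and 38.3 in red (0.47 ± 0.10, adjusted p = 0.000898). Red exceeded yellow without overlap at both stages, by less than the minimum. Solyc04g010110.3, with the enzyme entry of an anthocyanidin glycoside xylosyltransferase, was at 30.2 FPKM or less in every group mean, and its differences ran from 0.20 to 0.51 on the log2 scale. Solyc04g080010.3, with that of a hydroquinone glucosyltransferase, was 0.53 ± 0.09 higher in red at color break (adjusted p = 0.00041) and 0.69 ± 0.09 at maturity (adjusted p = 2.91e-05), again under the minimum.

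Members of the sterol branch, which glucosylate membrane sterols, showed no call by edgeR, DESeq2 or limma. Of these 3 genes, 2 had an unadjusted edgeR p under 0.05 between the tomatoes at color break and 1 at maturity. SGT4 (Solyc04g051150.3), described as UDP-glucose:sterol glucosyltransferase, was at 3.21, 3.00 and 3.44 FPKM in yellow fruit, against 4.09, 4 and 3.72 for red ones at color break, and in red it stood 0.69 ± 0.10 lower on the log2 scale at maturity (adjusted p = 2.24e-05). For the 2 genes with a cis-zeatin glucosyltransferase entry, which inactivates a cytokinin, edgeR, DESeq2 and limma made 0 calls, with 1 at an unadjusted edgeR p under 0.05 at color break and 0 at maturity. The same 0 held for the 2 genes of the endoplasmic reticulum, Solyc01g104040.3, a UDP-glucose:glycoprotein glucosyltransferase that tags unfolded proteins, and Solyc09g010770.3, a dolichol-linked glucosyltransferase, with 0 and 1 at an unadjusted p under 0.05. Solyc09g010770.3 uses a dolichol-bound sugar in its described reaction, and its description alone placed it among the members. Solyc01g006660.2 carries a serine endopeptidase term beside the glycosyltransferase term and stayed between 10.7 and 14.1 FPKM in all libraries.

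Position grouped some of the members: 12 of the 52 lay within 50 kb of another member, in 9 pairs. On chromosome 8, Solyc08g006330.3, Solyc08g006360.2 and Solyc08g006410.3 lie in a row and are all among the 8 members of highest mean level (30.5, 45.7 and 48.5 FPKM). Solyc08g006360.2 (-0.42 ± 0.05) and Solyc08g006410.3 (-0.57 ± 0.06) were lower in red at color break at an adjusted p under 0.05 but under the minimum, and Solyc08g006330.3 stood at -0.10 ± 0.04 (adjusted p = 0.0619, and under 0.05 with 2 groups only), its yellow libraries all above its red ones. At maturity all 3 were lower in red (-0.69 ± 0.04, -0.51 ± 0.05 and -0.49 ± 0.05). On chromosome 1, Solyc01g107810.3 ends 11584 bases before Solyc01g107830.3, the most abundant member, and the neighbors differed by far in red fruit: the first fell by 2.23 ± 0.05 on the log2 scale with stage and the second by 0.63 ± 0.03. On chromosome 4, Solyc04g016210.3 was 0.72 ± 0.12 higher in red at maturity (adjusted p = 0.000128), and its neighbor Solyc04g016220.3 stood at 0.11 ± 0.12 there (adjusted p = 0.429). Neighbors of like sequence could share reads, and this was not tested.

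Other steps of the pathway were counted beside the members. A list of 10 genes held enzymes of flavonoid synthesis, which makes the acceptors of flavonol glucosyltransferases, and their transcription factor MYB12. Of these, 8 were tested, and 7 were called higher in red at color break and 0 lower, beside 4.12% and 2.08% of all tested genes. At maturity 7 were called higher and 1 lower, beside 3.26% and 7.89%. In red fruit 7 fell with stage, beside 11.5%. MYB12, counted among the 7 and known to switch the enzyme genes on in the skin, reached 1 FPKM in red groups only and had 10.2 FPKM in red against 0.456 in yellow at color break (4.47 on the log2 scale). Of 27 genes that make or convert UDP-sugars, 20 were tested. At color break 0 were called higher in red and 1 lower, beside 4.12% and 2.08% of all tested genes. At maturity the counts were 0 and 3, beside 3.26% and 7.89%. The medians were -0.05 at color break and -0.15 at maturity. A UDP-glucuronate decarboxylase gene, Solyc09g005470.3, which leads to UDP-xylose, was lower in red at both stages, at 9.79 FPKM in yellow and 3.39 in red at color break (log2 -1.53) and 12.9 and 3.08 at maturity (-2.2). In yellow fruit 1 of the 20 fell with stage and in red 2 fell, among them Solyc05g054590.3 (-1.01 and -1.84). Of all tested genes, 4.88% fell in yellow and 11.5% in red. The yellow call, at the minimum change, was lost in 6 of 20 alternatives, among them leaving out replicate 2 of either yellow group.

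Beta-glucosidases can take the glucose off again. Of 13 genes with that term or description, 11 were tested. At color break 1 was called higher in red and 0 lower, beside 4.12% and 2.08% of all tested genes. At maturity the counts were 0 and 2, beside 3.26% and 7.89%. The 1 higher was Solyc01g059965.1, described as a glucan endo-1,3-beta-glucosidase, which acts on wall glucans rather than on small glycosides, at 0.120 FPKM in yellow and 3.39 in red at color break. The 2 lower at maturity were Solyc06g073760.3 (-1.30) and Solyc11g042460.2 (-1.09), the latter described as a non-lysosomal glucosylceramidase. Solyc06g073760.3 is low and passed the filter through yellow at maturity alone (1.17 FPKM, against 0.520 to 0.688 in the other group means), which bears on its fall here and on its rise in yellow. With stage, 2 of the 11 rose in yellow, Solyc01g059965.1 (5.52) and Solyc06g073760.3 (1.05), and 1 fell in red, Solyc06g076780.3 (-1.33). Of all tested genes, 1.47% rose in yellow and 11.5% fell in red.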

How the data were processed

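Counts and FPKM values were deposited by the authors in 1 table with a column of each per library. The count columns hold whole numbers with differing totals and were taken as raw counts, and the FPKM columns deposited by the authors were used for levels and for the filter. The submitters' processing notes name DESeq2, edgeR, StringTie 2.1.6, HISAT2 2.2.1 and cutadapt 1.9. For genome build, tool settings and use of strand in counting, the answer is "not given in the sources used here", and coordinates are the table's own. All 15974 genes with at least 1 FPKM in at least 3 libraries entered edgeR's quasi-likelihood test (edgeR 4.0.16, R 4.3.3) on counts with TMM scaling and a mean per group, and p-values were adjusted (Benjamini-Hochberg) over all of them. SE is the absolute log2 fold change over the square root of F. With limma on log2(FPKM + 1) the median change of all genes was 0.12 at maturity (red against yellow), 0.142 for stage in red and 0.116 for the difference of stage changes. Library totals (50963462 to 60854667) bound the precision. Replicates of every group differed by more than counting noise (chi-square over its degrees of freedom 5.37 to 34.9). The fit was tested on simulated data.

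Protein boxes and promoter motifs of the design were not analysed here. Members and lists were chosen with earlier results of these data known. Named members are up to 4 called rises and 4 called falls of greatest size in each comparison, the difference of stage changes included, the 8 of highest mean FPKM, and called members whose description names an acceptor such as a flavonol or sterol. Up to 4 called genes per companion list and comparison could be named. SGT4, the class examples and the neighbors lie outside this rule, as do the members said to be named after their values were seen. Alternatives were RLE scaling, no filter, DESeq2 1.42.0, limma 3.58.1 with pseudocounts of 1 and 0.1, a replicate block, each library left out, 2 groups only and no minimum change. Total count scaling was added after seeing the data.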

Additional observations from a re-analysis of the deposited data

Results flagged for a closer look

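In 7 named members the stage change differed between the tomatoes by edgeR's test of the difference itself (red minus yellow, log2). The difference was -3.50 in Solyc02g085660.1, -4.01 in Solyc03g078240.2, -2.17 in Solyc03g078780.2, -1.85 in Solyc09g059170.2 and -3.93 in Solyc10g008860.1. It was 1.32 in Solyc07g043170.3, a gene inside another member on the opposite strand. Solyc07g043170.3, Solyc10g008860.1 and Solyc12g057060.2 each passed the filter through a single group, and Solyc03g078240.2 through color break alone. In Solyc12g057060.2 the fitted value was -7.83, which rests on a group at 0 counts, depends on the prior count and is no bound. With limma on log2(FPKM + 1), which understates changes of low genes, 4 of the 7 were not called: Solyc03g078780.2 (-0.66), Solyc07g043170.3 (0.64), Solyc10g008860.1 (-0.96) and Solyc12g057060.2 (-0.10).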

How the results depend on the processing

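The number of members called stayed within a factor of 1.5 of 8 at color break, 11 at maturity, 7 in yellow, 16 in red and 11 for the difference under RLE scaling, no filter, DESeq2, limma on log2(FPKM + 0.1), total count scaling and, for the first 4, with 2 groups only. Limma on log2(FPKM + 1) called 3, 5, 3 and 4 at color break, at maturity, in yellow and for the difference. Without a minimum change the counts were 30, 32, 27, 37 and 26. Leaving out 1 library gave 8 to 9, 11 to 11, 6 to 7, 16 to 17 and 10 to 14. No named member's call reversed. In the named members limma on log2(FPKM + 1) lost 18 calls, and leaving out 1 library lost 1 and added 7. Same-numbered replicates correlated at -0.106 to 0.082, with 0 of 18 pairs over 0.1, and replicates of differing number at -0.121 to 0.118. In 0 of 12 samples was the own number the best match in every other group at once. Between the yellow groups each library did correlate best with its own number (0.069, 0.082 and 0.038). In no other pair of groups did all libraries do so. With 3 libraries per group these correlations cannot exclude a pairing of small effect, and the labels state none. With a replicate block the counts were 8, 11, 7, 16 and 11. Counts for the companion lists moved by more than 1.5 times in 29 cases and not in 466. Depth limits the lowest values most: Solyc10g008860.1 at maturity and Solyc05g006140.1 at color break rest on 0 to 21 counts per library.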
